A study of Rattus norvegicus with 18 samples.

Results

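The higher of a pair of BDE-47 doses was set against the lower one in the total brain of rat pups, across all probes of an Illumina rat expression array. The comparison covers 6 of the 18 arrays of the series, chosen by their labels alone: 3 arrays of total brain at 0.2 mg/kg body weight and 3 at 0.002 mg/kg. No probe of 22523 was called different between the doses, so what follows gives the sizes, the intervals and the individual arrays behind that count.

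Timed-pregnant Wistar dams were injected in the tail with BDE-47 dissolved in a mixture of ethanol, Cremophor EL and water, or with that mixture alone, once late in gestation and on 2 days after birth (3 injections per dam). A single female pup was drawn from each litter at postnatal day 10, and 3 dams made up each group. The 0.2 mg/kg, 0.002 mg/kg and vehicle groups of total brain therefore hold 3 pups of 3 litters each, and all of them, vehicle included, carry the solvent and the injections. A further 9 arrays come from frontal lobe at the same doses. Their own sample protocol gives postnatal day 41 and 6 injections, whereas the text on the whole series gives day 10 for both tissues.

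BDE-47 is a brominated diphenyl ether of the group used as flame retardants. Such compounds are fat-soluble and reach offspring across the placenta and in milk. Their shape resembles that of thyroid hormone, which in the perinatal rat brain is needed for myelination, for the outgrowth of axons and dendrites and for the timing of neuronal maturation. The nuclear receptors that sense foreign compounds in liver, the aryl hydrocarbon receptor, Pxr and Car, are the other targets usually considered for this class of chemicals.

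Values are given as deposited, on a scale described here as log2, on which a difference of 1 is 2-fold. In total brain they ran from 7.59 to 15.75 with a median of 7.89, and 56.6% of probes averaged under 8, near the floor of the scale. Within groups, probes had a median SD of 0.04 at each dose and in vehicle, and in the brighter 50% of probes at 0.2 mg/kg, 0.002 mg/kg and vehicle it was 0.08, 0.09 and 0.08. The labelled tissue was borne out by its markers, with Snap25 between 12.62 and 12.99 at 0.2 mg/kg and between 12.80 and 13.45 at 0.002 mg/kg, and the muscle genes Myh4 and Ckm at most 7.73 on all 9 arrays. The third muscle marker, Acta1, averaged 10.19 at 0.2 mg/kg, 9.93 at 0.002 mg/kg and 10.14 in vehicle. In a whole-organ sample, fewer cells of a type and less RNA per cell cannot be told apart.

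One array stood apart. Replicate 2 of the 0.002 mg/kg group correlated with the other total brain arrays at r between 0.984 and 0.993 (mean 0.989), whereas the means of the others were at least 0.993. It held the highest or the lowest of the 9 values in 40.4% of probes and carried 22.4% of the within-group sum of squares. Along the main axis of variation within groups (45.8% of that variance, by principal components), replicates 1, 2 and 3 scored 0.22, -0.39 and 0.17 at 0.2 mg/kg and 0.38, -0.62 and 0.24 at 0.002 mg/kg, so that the arrays numbered 2 lay on the same side at both doses. Vehicle replicates 1, 2 and 3 scored -0.26, -0.09 and 0.35, so that replicate 1 was the lowest there. Because 0.002 mg/kg replicate 2 stood apart, several list medians, counts and gene differences are also given without it.

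The comparison of 0.2 with 0.002 mg/kg asks whether the step in dose was accompanied by a difference in transcript levels. At an adjusted p under 0.05 (limma, Benjamini-Hochberg over all 22523 probes) the share of probes called was 0%, and the lowest adjusted p was 0.499. At an unadjusted p under 0.05 there were 1321 probes, 649 of them higher and 672 lower at 0.2 mg/kg, and at an unadjusted p under 0.001 there were 26. The 3 values at 0.2 mg/kg all lay above, or all below, the 3 at 0.002 mg/kg in 2465 probes (10.9%), 1204 of them higher and 1261 lower. Calls appeared in 3 other fits. With limma's trend and robust options Adgrb1 and Myl12b passed at an adjusted p of 0.0217, without vehicle replicate 3 Plekhf2 passed at 0.0335, and without 0.002 mg/kg replicate 2 a probe with no gene name passed at 0.000118. Without that last array the count at an unadjusted p under 0.05 was 835, of which 566 belonged to the 1321, and all 1321 kept their sign. The 1321 were picked with that array included and the fits share all other arrays, so a kept sign says little about stability.

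The differences were small in most probes. The median size of the difference was 0.03, or 0.07 among the brighter 50% of probes, and 99% of probes lay within 0.35 of 0. A difference of at least 0.5 was seen in 38 probes, 22 higher and 16 lower at 0.2 mg/kg, and one of at least 1 in 2. The median half-width of the 95% interval was 0.08, or 0.16 in the brighter 50%. The whole interval lay inside a 2-fold change in either direction for 99.6% of probes and inside a 1.5-fold change for 96.0% (92.1% in the brighter 50%). These intervals cover each probe on its own and are not adjusted for the number of probes. The brighter 50% starts at a mean of 7.89, so it too holds probes near the floor. Narrow intervals there say little about change, and the fold bounds apply only if the scale is log2.

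**Figure D1:**
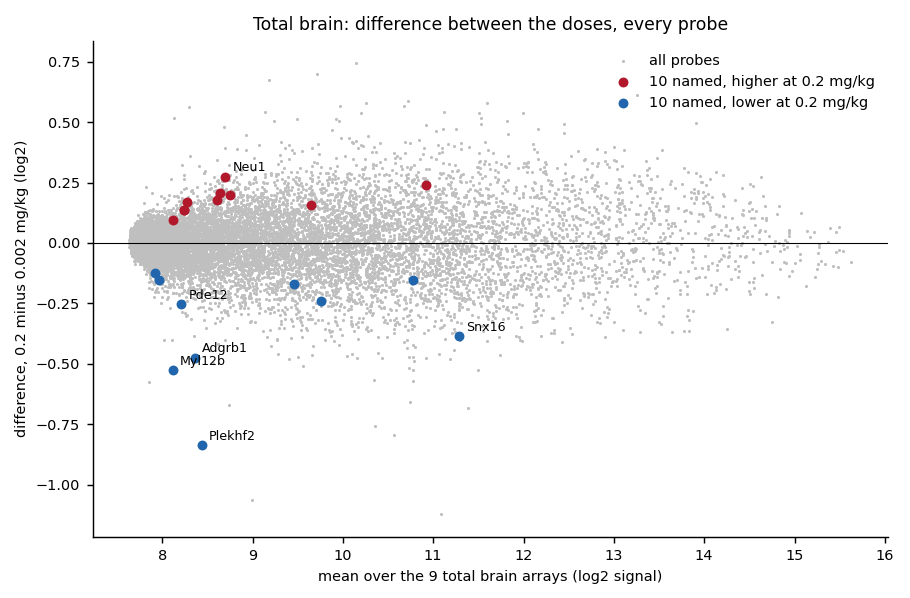
Difference between 0.2 and 0.002 mg/kg (log2, vertical axis) against the mean over the 9 total brain arrays (log2 signal, horizontal axis), with 1 grey point per probe. The 10 named genes higher at 0.2 mg/kg are red and the 10 lower are blue, and most grey points lie within 0.35 of 0.

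The vehicle arrays place these differences. Among the 1321 probes with an unadjusted p under 0.05, the vehicle mean fell between the means of the doses in 1002 (75.9%), beyond the 0.2 mg/kg mean in 221 and beyond the 0.002 mg/kg mean in 98. Over all probes it fell between them in 7967 (35.4%), beyond 0.2 mg/kg in 8166 and beyond 0.002 mg/kg in 6390. A wide gap between the doses leaves more room for a value in between, and these shares are given without a test.

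The genes with the smallest unadjusted p among fully separated, brighter probes were taken as the 10 highest-ranked in each direction, and none of them passed the adjustment (adjusted p from 0.499 to 0.780, limma). The 10 that were higher at 0.2 mg/kg differed by 0.10 to 0.27. Neu1, which encodes the lysosomal sialidase, gave 8.85, 8.85 and 8.86 at 0.2 mg/kg, against 8.59, 8.52 and 8.63 at 0.002 mg/kg. Its difference of 0.27 (SE 0.03) had a 95% interval of 0.19 to 0.35, and the vehicle arrays gave 8.70, 8.60 and 8.67. The 3 values at 0.2 mg/kg lay above both other groups.

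Hnrnpd, an RNA-binding protein that regulates the stability of messages with AU-rich elements, gave 11.04, 10.93 and 11.08 at 0.2 mg/kg, against 10.85, 10.72 and 10.77 at 0.002 mg/kg, a difference of 0.24 (SE 0.05). Snupn, the import adaptor of spliceosomal small nuclear RNPs, gave 8.31, 8.27 and 8.29 at 0.2 mg/kg, against 8.21, 8.11 and 8.15 at 0.002 mg/kg, a difference of 0.14. For both genes the vehicle values lay between the doses on average, at 10.98 for Hnrnpd and 8.26 for Snupn. Cdc40, a splicing factor, gave 8.27, 8.26 and 8.25 at 0.2 mg/kg, against 8.13, 8.12 and 8.11 at 0.002 mg/kg. Its other probe was brighter (mean 9.93 against 8.24) and differed the opposite way (-0.20). Hexim2, an inhibitor of the elongation factor P-TEFb, gave 8.33, 8.36 and 8.38 at 0.2 mg/kg, against 8.16, 8.19 and 8.21 at 0.002 mg/kg. The groups of these 4 genes did not overlap, as the rule that chose them requires. Among 43 measured genes of a list for RNA splicing, 16 were above 0 and 27 below, with a median of -0.03. Over all genes 6627 of 13337 were above 0, so these picked genes do not stand for splicing genes at large.

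Tekt1, a structural protein of ciliary microtubules, gave 8.76, 8.68 and 8.74 at 0.2 mg/kg, against 8.55, 8.49 and 8.53 at 0.002 mg/kg, a difference of 0.21 (SE 0.03). Npepps, the puromycin-sensitive aminopeptidase, gave 9.75, 9.72 and 9.68 at 0.2 mg/kg, against 9.56, 9.59 and 9.54 at 0.002 mg/kg, a difference of 0.16 (SE 0.03). The remaining 3 were Oard1, which removes ADP-ribose from proteins (0.20), Gpn2, a small GTPase (0.18), and Slc29a2, an equilibrative nucleoside transporter (0.10). For Cdc40 and Gpn2 the vehicle mean lay beyond that of 0.2 mg/kg, and for the other 8 it lay between the doses.

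The 10 that were lower at 0.2 mg/kg differed by 0.12 to 0.84. Plekhf2, an endosomal protein with PH and FYVE domains, had the widest gap of the 20. It gave 7.87, 7.84 and 7.85 at 0.2 mg/kg, against 8.77, 8.59 and 8.72 at 0.002 mg/kg, a difference of -0.84 (SE 0.14, 95% interval -1.16 to -0.51, adjusted p = 0.660 in limma). The vehicle arrays gave 8.66, 8.53 and 9.14. All 3 arrays at 0.2 mg/kg were close to the floor while the 6 others were not, and the spread among the vehicle arrays entered the pooled error, so that without vehicle replicate 3 the adjusted p was 0.0335.

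In Adgrb1 and Myl12b it was the 0.002 mg/kg arrays that stood away from both other groups. Adgrb1, an adhesion G protein-coupled receptor also called brain angiogenesis inhibitor, gave 8.24, 8.16 and 8.21 at 0.2 mg/kg, against 8.65, 8.81 and 8.58 at 0.002 mg/kg, a difference of -0.47 (SE 0.05), and the vehicle arrays averaged 8.20. Myl12b, a regulatory light chain of non-muscle myosin, gave 7.97, 7.94 and 7.96 at 0.2 mg/kg, against 8.30, 8.69 and 8.46 at 0.002 mg/kg, a difference of -0.53 (SE 0.08), and the vehicle arrays averaged 7.90. Mtbp, which binds Mdm2, and Acsl5, which activates long-chain fatty acids, showed the same order with differences of -0.12 and -0.17. The contrast of 0.002 mg/kg with vehicle shares its 0.002 mg/kg arrays with the present one, so the position of these 4 genes in it is not separate evidence.

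Snx16, a sorting nexin of endosomes, gave 10.99, 11.01 and 11.11 at 0.2 mg/kg, against 11.45, 11.46 and 11.37 at 0.002 mg/kg, a difference of -0.39 (SE 0.06), and the vehicle arrays averaged 11.39. Kif3c, a kinesin motor of neurons, gave 10.68, 10.70 and 10.68 at 0.2 mg/kg, against 10.82, 10.88 and 10.83 at 0.002 mg/kg, a difference of -0.15 (SE 0.03). In both genes the vehicle arrays lay nearer to 0.002 mg/kg. Prtfdc1, which resembles a purine salvage enzyme, differed by -0.24, Pde12, which trims poly(A) tails in mitochondria, by -0.25, and Apba1, an adaptor of the presynaptic terminal, by -0.16. Of all 20 genes, 13 differed with the same sign between the doses in frontal lobe, some by little (-0.03 for both Apba1 and Pde12). The share of all genes with the same sign was not computed, so nothing is read from this count.

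**Figure D2:**
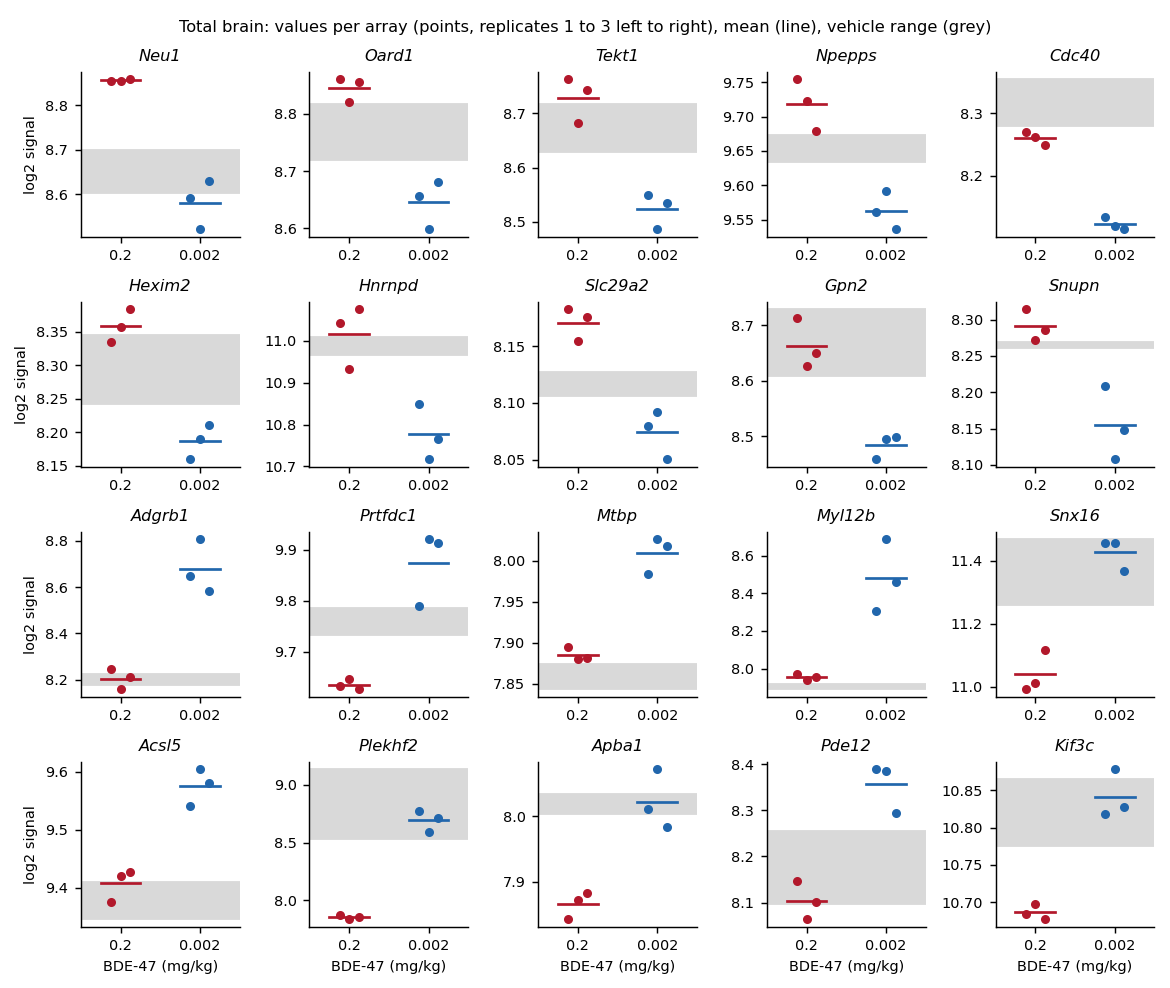
Values on each total brain array (log2 signal) of the 20 named genes, with 0.2 mg/kg in red left of 0.002 mg/kg in blue, replicates 1 to 3 from left to right, a line for each mean and a grey band from the lowest to the highest vehicle array. Each panel has its own scale; Plekhf2 separates 7.84 to 7.87 from 8.59 to 8.77.

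Genes that respond to thyroid hormone or carry it are the first group that bears on the compound. Of 24 measured genes of the thyroid list, 14 were above 0 and 10 below, none passed the adjustment, and the median difference was 0.02 beside -0.00 over all 13337 genes. At an unadjusted p under 0.05 there were 3 higher members and 1 lower one, where the shares over all genes were 3.26% higher and 3.46% lower. Without 0.002 mg/kg replicate 2 the median was -0.00, and 3 members were higher and none lower at that threshold, where the shares over all genes were 2.02% higher and 2.2% lower. For every list below, the shares over all genes are the same within a fit. With the replicate number as a block in the fit, they were 4.36% higher and 4.54% lower.

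Ttr, which encodes transthyretin, the thyroxine carrier made by the choroid plexus, gave 13.66, 13.43 and 13.74 at 0.2 mg/kg, against 12.81, 12.78 and 13.39 at 0.002 mg/kg, with 13.35, 13.09 and 13.09 in vehicle. All 3 arrays at 0.2 mg/kg lay above those at 0.002 mg/kg, the nearest pair only narrowly, and the difference was 0.61 (SE 0.17, 95% interval 0.21 to 1.01, adjusted p = 0.780 in limma). Among other markers of the choroid plexus, 3 were near the floor: Folr1 averaged 7.93 at 0.2 mg/kg and 7.83 at 0.002 mg/kg, Clic6 averaged 7.80 and 7.81, and Kl averaged 7.91 and 7.89. A few brighter members are named here after their values were seen, all of them above 0 as Ttr was, and the brighter ones below 0 are not named. Sostdc1, a secreted antagonist of BMP and Wnt signals, gave 9.72, 9.61 and 9.62 at 0.2 mg/kg, against 9.13, 9.55 and 9.53 at 0.002 mg/kg, a difference of 0.24 with separated groups. Slco1a5, an organic anion transporter, differed by 0.17 and Aqp1, a water channel, by 0.10, both with overlapping groups. Of 23 choroid plexus genes measured, 15 were above 0 with a median of 0.02 (11 of the 15 brighter ones, with a median of 0.04). The part of choroid plexus tissue in the Ttr difference was not tested.

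Itih3, a heavy chain of the inter-alpha-trypsin inhibitors, gave 11.89, 11.88 and 11.92 at 0.2 mg/kg, against 11.73, 11.55 and 11.62 at 0.002 mg/kg, a difference of 0.27. Thrap3, a splicing and transcription cofactor named for the thyroid receptor complex, differed by 0.19. Thra, the main thyroid hormone receptor of brain, which is named here after its values were seen, gave 13.40, 13.58 and 13.26 at 0.2 mg/kg, against 13.72, 13.94 and 13.59 at 0.002 mg/kg, a difference of -0.33 (SE 0.11). In each of these 3 genes the doses did not overlap. Classical response genes were close to 0 or had intervals across it. Klf9 differed by 0.10 (95% interval -0.09 to 0.29), Hr, a corepressor induced by thyroid hormone, by -0.07 (-0.22 to 0.09), and Thrsp by -0.10 (-0.41 to 0.22). These were 0.03, -0.02 and -0.02 without 0.002 mg/kg replicate 2. Dio2, the deiodinase that makes the active hormone in glia, differed by 0.04 (-0.02 to 0.10) with values near the floor.

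Of 24 genes of foreign-compound metabolism measured, 10 were above 0 and 14 below, with a median of -0.00 and 1 lower member at an unadjusted p under 0.05. Among the brighter 11, 6 were above 0 with a median of 0.10. That member was Abcg2, an efflux pump of the blood-brain barrier, with 8.97, 9.08 and 8.84 at 0.2 mg/kg, against 9.16, 9.21 and 9.14 at 0.002 mg/kg. Cyp1a1, the standard target of the aryl hydrocarbon receptor, sat at the floor with means of 7.71 at 0.2 mg/kg and 7.70 at 0.002 mg/kg (95% interval of the difference -0.03 to 0.06). The receptor gene itself, Ahr, differed by -0.21 with overlapping groups, and Nr1i2, which encodes Pxr, by -0.04. Gstp1, a glutathione transferase, differed by 0.27 (0.13 without 0.002 mg/kg replicate 2) and Cyp1b1, another target of the aryl hydrocarbon receptor, by 0.15. Both are named after their values were seen and had overlapping groups.

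Among 27 genes of oxidative stress defence, 15 were above 0. At an unadjusted p under 0.05, 2 were higher and 1 lower, beside 3.26% and 3.46% of all genes. Keap1, the repressor of Nrf2, gave 9.63, 9.71 and 9.69 at 0.2 mg/kg, against 9.80, 9.91 and 9.82 at 0.002 mg/kg, a difference of -0.17 (SE 0.04). Sod1, the cytosolic superoxide dismutase, gave 13.54, 13.49 and 13.60 at 0.2 mg/kg, against 13.43, 13.30 and 13.41 at 0.002 mg/kg, a difference of 0.17 (SE 0.04). Both were fully separated, and both vehicle means fell between the doses, nearer to 0.002 mg/kg for Keap1 (9.80) and nearer to 0.2 mg/kg for Sod1 (13.52). Gpx1, a glutathione peroxidase, differed by 0.39 with overlapping groups, and Nqo1, a target of Nrf2, by 0.10 (95% interval -0.08 to 0.28). Leaving out 0.002 mg/kg replicate 2 gave 0.26 and 0.01.

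With all arrays, the list medians farthest from 0 were in genes of translation and respiration. Of 49 lists, 3 then had a median beyond 0.05 in either direction, namely the subunits of oxidative phosphorylation, the mitochondrial ribosomal proteins and the cytosolic ribosomal proteins. Of 55 oxidative phosphorylation genes, 42 were above 0 with a median of 0.14. Of 59 mitochondrial ribosomal genes, 44 were above 0 with a median of 0.08, and of 61 cytosolic ribosomal genes 51 were above 0 with a median of 0.07. Over all genes 6627 of 13337 were above 0. No member of these lists passed the adjustment.

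At an unadjusted p under 0.05, 3.26% of all genes were higher and 3.46% lower. The oxidative phosphorylation list held 6 higher and 2 lower members, the mitochondrial ribosomal list 1 higher member and the cytosolic ribosomal list 5 higher ones. With the replicate number as a block, these counts were 11 higher and 3 lower, 8 higher and 1 lower, and 11 higher, where the shares over all genes in that fit were 4.36% higher and 4.54% lower. Without 0.002 mg/kg replicate 2 they were 3 higher and 2 lower, 1 higher, and 2 higher. Ndufb3, a subunit of complex I, gave 12.84, 12.83 and 12.95 at 0.2 mg/kg, against 12.69, 12.74 and 12.77 at 0.002 mg/kg, a difference of 0.14 (SE 0.04). Cox6c, a subunit of cytochrome c oxidase, gave 8.57, 8.39 and 8.38 at 0.2 mg/kg, against 8.22, 8.19 and 8.28 at 0.002 mg/kg, a difference of 0.22 (SE 0.06). Uqcrfs1, the Rieske protein of complex III, ran the other way with 13.44, 13.39 and 13.43 at 0.2 mg/kg, against 13.51, 13.58 and 13.52 at 0.002 mg/kg.

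Among the ribosomal proteins, Rps29 gave 13.89, 13.83 and 13.97 at 0.2 mg/kg, against 13.77, 13.61 and 13.76 at 0.002 mg/kg, a difference of 0.18 (SE 0.06). Rplp1, a protein of the ribosomal stalk, differed by 0.23 (0.15 without 0.002 mg/kg replicate 2), and Rps23, a protein of the decoding centre, by 0.34 (0.21 without it). All 3 were separated, and in each the lowest value belonged to 0.002 mg/kg replicate 2. Mrpl21 of the mitochondrial large subunit gave 11.25, 11.13 and 11.44 at 0.2 mg/kg, against 11.06, 10.65 and 11.12 at 0.002 mg/kg, a difference of 0.33 in which the groups were barely separated (0.18 without 0.002 mg/kg replicate 2).

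At both doses, but not in vehicle, these lists were lowest in replicate 2. Relative to the mean over the 9 arrays, the oxidative phosphorylation genes averaged 0.10, -0.08 and 0.12 in replicates 1 to 3 at 0.2 mg/kg, against -0.03, -0.19 and -0.02 at 0.002 mg/kg. The cytosolic ribosomal genes averaged 0.11, -0.11 and 0.09 at 0.2 mg/kg, against 0.06, -0.23 and -0.08 at 0.002 mg/kg. The arrays numbered 2 were the lowest of each dose in both lists, whereas replicate 1 was the lowest in vehicle. Vehicle arrays averaged -0.06, 0.04 and 0.13 for oxidative phosphorylation and -0.03, 0.01 and 0.20 for the cytosolic ribosome, a spread wider than the mean difference between the doses. Without 0.002 mg/kg replicate 2 the medians were 0.08 for oxidative phosphorylation, 0.03 for mitochondrial and 0.05 for cytosolic ribosomal genes, and over all left-out arrays they ranged from 0.08 to 0.20, from 0.03 to 0.15 and from 0.05 to 0.16. Without that array the lists with a median beyond 0.05 were myelin (0.08), oxidative phosphorylation, developing neuron (-0.05) and cholesterol synthesis (-0.05).

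**Figure D3:**
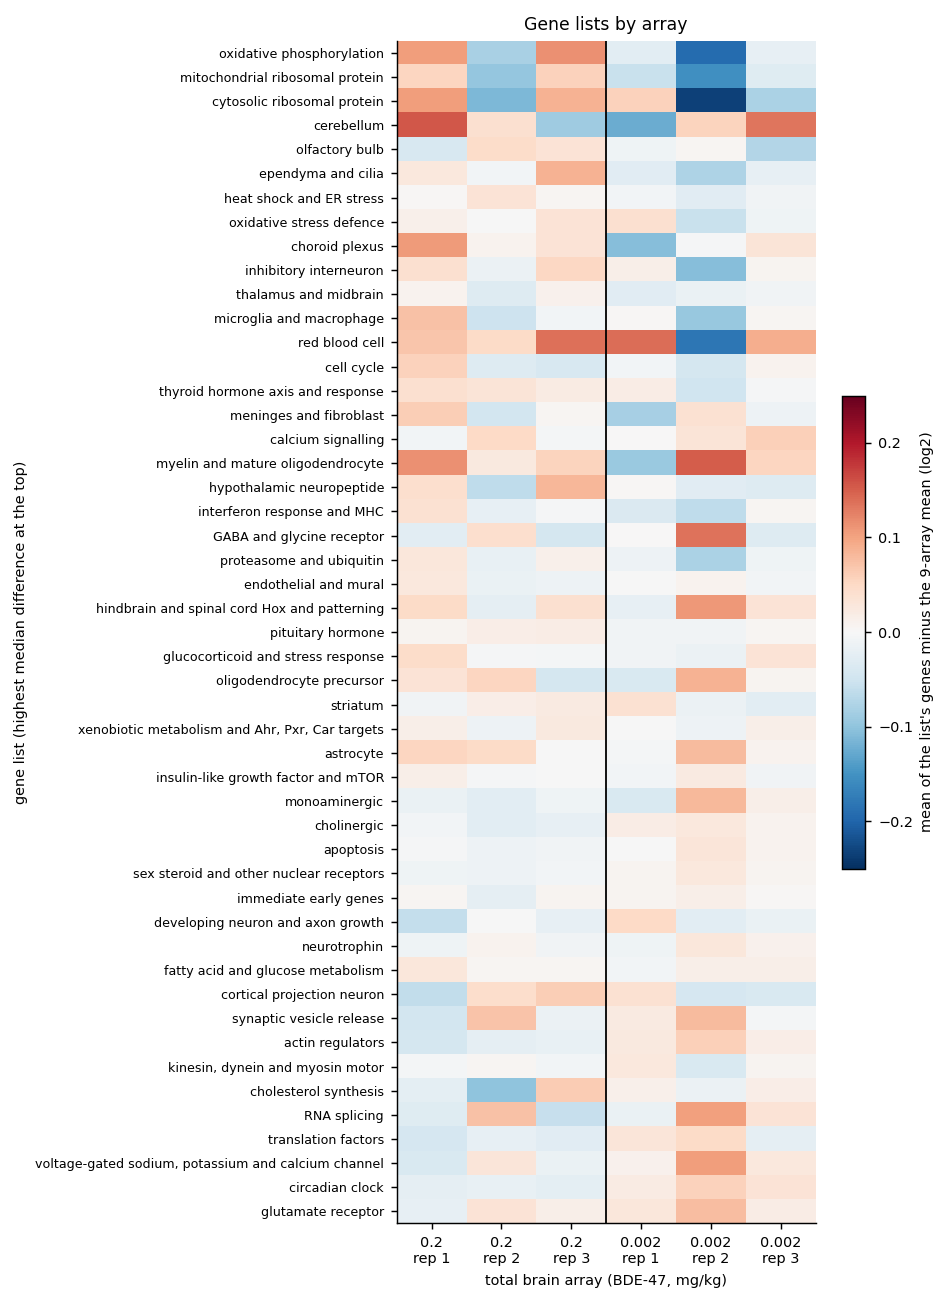
Mean of each gene list on each of the 6 exposed total brain arrays, relative to the mean over the 9 total brain arrays (log2, colour), with 0.2 mg/kg left of the black line and 0.002 mg/kg right of it. Cytosolic ribosomal genes range from -0.23 in 0.002 mg/kg replicate 2 to 0.11 in 0.2 mg/kg replicate 1.

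Translation factors had more members below 0 than above. Of 32 translation factors, 13 were above 0 with a median of -0.03. At an unadjusted p under 0.05, 2 were lower and none higher, beside 3.46% and 3.26% of all genes. With the replicate block 4 were lower and 1 higher, beside 4.54% and 4.36%. Eif4h, a helper of the initiation helicase, gave 13.33, 13.42 and 13.37 at 0.2 mg/kg, against 13.57, 13.98 and 13.56 at 0.002 mg/kg, a difference of -0.33 (SE 0.11), or -0.19 without 0.002 mg/kg replicate 2. Of 33 proteasome and ubiquitin genes, 17 were above 0 with a median of 0.00. At an unadjusted p under 0.05, 6 were higher and 1 lower, beside 3.26% and 3.46% of all genes. The counts were 9 higher and 1 lower with the replicate block, and 2 higher and none lower without 0.002 mg/kg replicate 2. Psmb7, a catalytic subunit of the proteasome, gave 12.41, 12.37 and 12.47 at 0.2 mg/kg, against 12.28, 12.23 and 12.32 at 0.002 mg/kg, a difference of 0.14 (SE 0.04). Psmd2 of the regulatory particle differed by 0.23 and Psmb4 by 0.17, both separated, and by 0.16 and 0.11 without that array. Of 39 heat shock and ER stress genes, 24 were above 0, and 4 were higher and 1 lower at that threshold, with Hspb1, the small heat shock protein, at 8.99, 8.69 and 8.95 at 0.2 mg/kg, against 8.67, 8.66 and 8.52 at 0.002 mg/kg.

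Of 25 genes of cholesterol and lipid synthesis, 11 were above 0 with a median of -0.03. At an unadjusted p under 0.05, 4 were lower and 1 higher, beside 3.46% and 3.26% of all genes. There were 3 lower and none higher with the replicate block, and 2 lower and none higher without 0.002 mg/kg replicate 2. Srebf1, which encodes the transcription factor SREBP-1, gave 9.20, 9.16 and 9.14 at 0.2 mg/kg, against 9.34, 9.45 and 9.30 at 0.002 mg/kg, a difference of -0.19 (SE 0.06). Scd, the stearoyl-CoA desaturase, differed by -0.27 and Acly, ATP citrate lyase, by -0.15 (-0.09 without that array), and all 3 were separated. Their vehicle means of 9.12, 11.23 and 11.11 lay nearer to 0.2 mg/kg.

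Only 2 of 15 circadian clock genes were above 0, with a median of -0.04. Cry1, a repressor of the clock, gave 9.94, 9.96 and 9.90 at 0.2 mg/kg, against 10.03, 10.21 and 10.02 at 0.002 mg/kg, a difference of -0.15 (SE 0.05), or -0.09 without 0.002 mg/kg replicate 2. Tef, a clock-driven transcription factor, differed by -0.09, and Csnk1d, a kinase that acts on the period proteins, by 0.15. At an unadjusted p under 0.05 there were 1 higher and 2 lower members. The labels used here give no hour of death for the pups, and its part in these values was not tested.

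Of 33 actin regulators, 12 were above 0, and 5 were lower and none higher at an unadjusted p under 0.05. Over all genes 3.46% were lower and 3.26% higher. Adgrb1 and Myl12b, already picked above by their p, were among the 5. Without 0.002 mg/kg replicate 2 there were 2 lower, where 2.2% of all genes were lower. Actr3, a core subunit of the Arp2/3 complex that branches actin filaments, gave 11.96, 12.12 and 11.96 at 0.2 mg/kg, against 12.23, 12.41 and 12.24 at 0.002 mg/kg, a difference of -0.28 (SE 0.10). Of 26 motor proteins, 10 were above 0. At an unadjusted p under 0.05, 1 was higher and 2 lower, beside 3.26% and 3.46% of all genes. With the replicate block 3 were higher and 4 lower, beside 4.36% and 4.54%. Without 0.002 mg/kg replicate 2 none was higher and 4 were lower, beside 2.02% and 2.2%. Dctn3, a subunit of the dynein activator dynactin, was the higher one in the reported fit. Its difference was 0.41 with overlapping groups (0.20 without 0.002 mg/kg replicate 2). Kif3b, a motor subunit of kinesin-2, differed by -0.14 and Kif3c by -0.15.

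Neuronal lists had medians on both sides of 0. The glutamate receptor list had the lowest median of the 49 lists, at -0.04 with 10 of 21 genes above 0 (-0.01 without 0.002 mg/kg replicate 2). Of 33 synaptic vesicle genes, 13 were above 0 with a median of -0.02, and 3 were lower and 1 higher at an unadjusted p under 0.05. Syn3, a synapsin, gave 7.94, 7.99 and 7.99 at 0.2 mg/kg, against 8.08, 8.12 and 8.09 at 0.002 mg/kg, a difference of -0.12 (SE 0.02). Slc17a7, the vesicular glutamate transporter of cortical neurons, gave 9.39, 9.48 and 9.56 at 0.2 mg/kg, against 9.02, 9.32 and 8.996 at 0.002 mg/kg, a difference of 0.36 (SE 0.11). Vamp2, a SNARE of synaptic vesicles, differed by -0.15. All 3 were separated.

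The doses did not overlap in 2 of 21 glutamate receptor genes, 2 of 17 GABA and glycine receptor genes, 5 of 38 voltage-gated channel genes and 3 of 19 cholinergic genes, beside 11% of all genes. Gria2, an AMPA receptor subunit, gave 12.86, 13.14 and 12.96 at 0.2 mg/kg, against 13.25, 13.57 and 13.22 at 0.002 mg/kg, a difference of -0.36 (SE 0.14), the 1 lower glutamate receptor gene at an unadjusted p under 0.05. Glra2, a glycine receptor subunit, differed by -0.20, the 1 lower GABA or glycine receptor gene at that threshold. Of the channel genes, 14 were above 0 with a median of -0.03 (-0.09 in the 30 brighter ones). Slc5a7, the choline transporter, gave 8.03, 8.16 and 8.13 at 0.2 mg/kg, against 8.24, 8.65 and 8.29 at 0.002 mg/kg, a difference of -0.29 (SE 0.10), or -0.16 without 0.002 mg/kg replicate 2. None of 29 monoaminergic genes reached an unadjusted p under 0.05.

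Markers of neuronal classes differed in both directions. Vip, a peptide of interneurons and of the hypothalamus, gave 9.48, 9.65 and 9.60 at 0.2 mg/kg, against 9.74, 9.77 and 9.82 at 0.002 mg/kg, a difference of -0.20 (SE 0.05). Lhx6, a transcription factor of interneurons from the ganglionic eminence, gave 8.25, 8.11 and 8.15 at 0.2 mg/kg, against 8.36, 8.38 and 8.34 at 0.002 mg/kg, a difference of -0.19 (SE 0.05). Yet 11 of 17 interneuron genes were above 0, with Sst, another interneuron peptide, at 0.42 and overlapping groups. Elavl3, an RNA-binding protein of young neurons, differed by -0.16, in a list of 32 developing-neuron genes with 14 above 0. Immediate early genes, which report recent activity, had 9 of 22 above 0, and 1 was higher and 2 lower at an unadjusted p under 0.05. Ier3, induced by growth factors and stress, was the higher one, with 8.69, 8.60 and 8.58 at 0.2 mg/kg, against 8.54, 8.39 and 8.48 at 0.002 mg/kg, a difference of 0.16 with separated groups. Junb differed by -0.15, Arc by -0.14 and Fos by -0.05 (95% interval -0.12 to 0.03).

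Some glial and non-neural list medians, those of myelin, astrocyte and red blood cell genes among them, changed sign with a single array left out. The medians of microglial and meningeal genes kept their sign. Of 31 myelin genes, 18 were above 0 with a median of 0.01, which was 0.08 without 0.002 mg/kg replicate 2. Mbp, a main protein of myelin, gave 10.18, 10.31 and 10.39 at 0.2 mg/kg, against 10.03, 10.53 and 10.08 at 0.002 mg/kg, with overlapping groups and an interval of -0.34 to 0.50 around 0.08 (0.24 without that array). Astrocyte genes had 14 of 29 above 0. S100b, a calcium-binding protein of astrocytes, differed by 0.52 (SE 0.21, 0.34 without that array) and Slc1a2, their glutamate transporter, by 0.14 (SE 0.05), both separated, while Gfap, their filament protein, differed by -0.07 (95% interval -0.26 to 0.12).

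Meningeal and fibroblast genes had 22 of 35 above 0. At an unadjusted p under 0.05, 5 were higher and none lower, beside 3.26% and 3.46% of all genes. Without 0.002 mg/kg replicate 2 none was higher or lower at that threshold, where 2.02% of all genes were higher and 2.2% lower. The list median did not shrink with that count. It was 0.0175 with all arrays and 0.0350 without 0.002 mg/kg replicate 2, and 25 of the 35 were then above 0. Igfbp2, a binding protein of insulin-like growth factors, gave 12.27, 12.07 and 12.15 at 0.2 mg/kg, against 11.97, 11.56 and 11.97 at 0.002 mg/kg, a difference of 0.33 (SE 0.13), or 0.20 without that array. The collagens that mark these cells differed in opposite directions, with a difference of 0.12 for Col1a1 (95% interval -0.31 to 0.56) and of -0.18 for Col1a2 (-0.60 to 0.24). Of 25 red blood cell genes, 20 were above 0 with a median of 0.02, which was -0.00 without 0.002 mg/kg replicate 2. Microglial genes had 20 of 32 above 0 and none at an unadjusted p under 0.05 in either direction. The part of blood and membranes left on the tissue was not tested.

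Across the 49 lists, 25 medians were above 0 and 24 below, and they ranged from -0.04 to 0.14. Leaving out 0.002 mg/kg replicate 2 turned the sign of 10 of them.

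**Figure D4:**
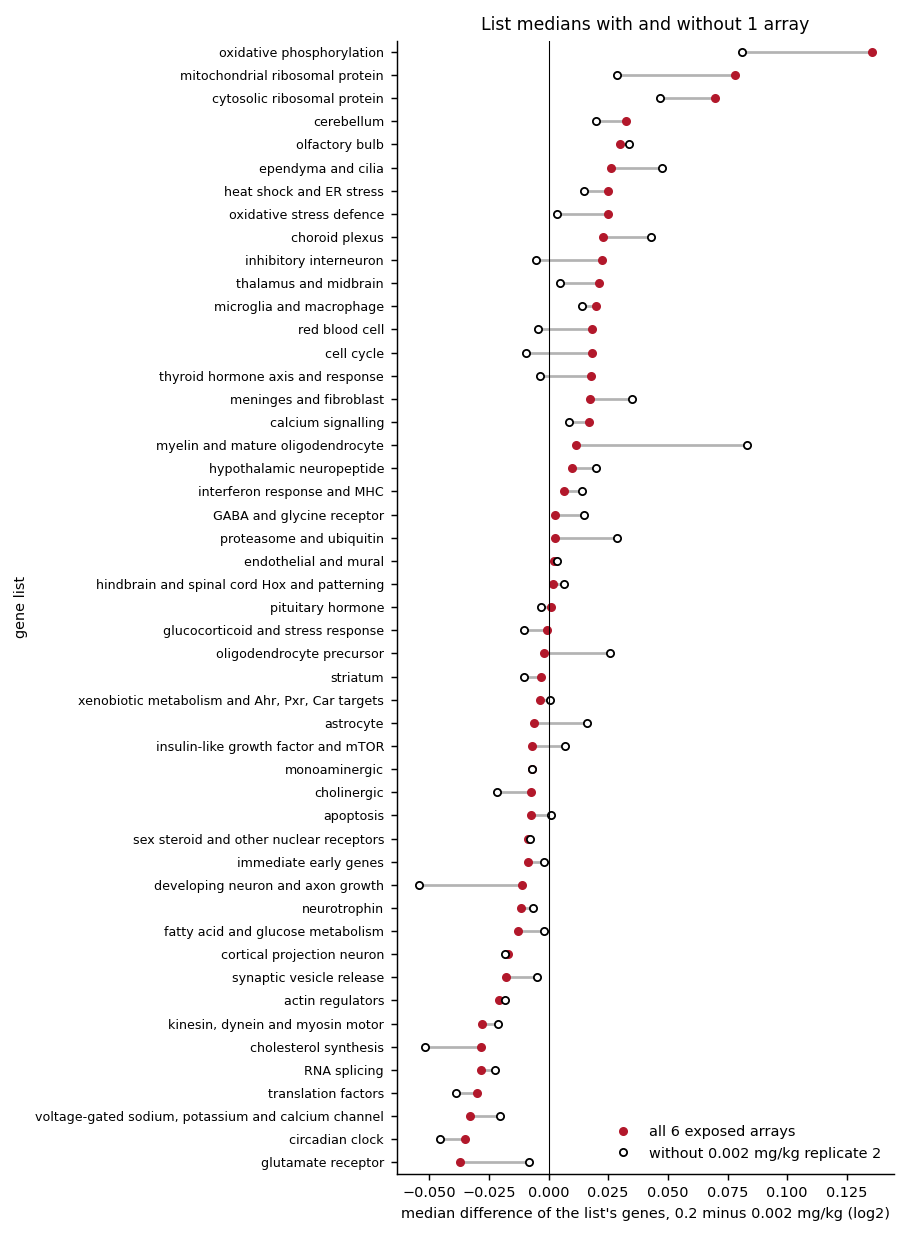
Median difference of each gene list, 0.2 minus 0.002 mg/kg (log2, horizontal axis), with all 6 exposed arrays (red) and without 0.002 mg/kg replicate 2 (open circles). Oxidative phosphorylation lies at 0.14 with all arrays and at 0.08 without that array, and myelin lies at 0.01 with all arrays and at 0.08 without it.

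Whether the step between the doses differed between total brain and frontal lobe was tested as an interaction over all 18 arrays. It was called for 35 probes (0.155% of 22523, adjusted p under 0.05 in limma), 24 of them with a more positive difference in total brain and 11 with a more negative one, and 15 of the 35 carried a gene name. With the replicate number as a block the count was 19, of which 18 were among the 35. Levels are not set against each other across tissues, since tissue, age and number of injections differ together and cannot be told apart.

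In most of the named ones the step lay in frontal lobe and the total brain groups were close. Rpl7, a protein of the large ribosomal subunit, averaged 12.79 ± 0.06 at 0.2 mg/kg and 12.69 ± 0.01 at 0.002 mg/kg in total brain (SD, n = 3 each), against 12.88 ± 0.08 and 11.67 ± 0.05 in frontal lobe. Rpl23 differed by 0.06 in total brain, against 0.87 in frontal lobe, and Rpl37l1 by 0.24 (0.13 without 0.002 mg/kg replicate 2) and 1.68. Atp2b2, a calcium pump of the neuronal plasma membrane, averaged 8.69 ± 0.05 at 0.2 mg/kg and 8.73 ± 0.12 at 0.002 mg/kg in total brain, against 8.99 ± 0.04 and 9.99 ± 0.19 in frontal lobe. Lzts3, a protein of the postsynaptic density, differed by 0.01 in total brain and -0.38 in frontal lobe.

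Slc17a7 and Npepps differed in opposite directions in the tissues. Slc17a7 averaged 9.48 ± 0.09 at 0.2 mg/kg and 9.11 ± 0.18 at 0.002 mg/kg in total brain, against 9.69 ± 0.20 and 10.59 ± 0.09 in frontal lobe, an interaction of 1.27 (SE 0.15, adjusted p = 0.00320). Npepps differed by 0.16 in total brain and by -0.14 in frontal lobe, an interaction of 0.29 (SE 0.05, adjusted p = 0.0213). A probe of Eef1a1, the elongation factor that delivers aminoacyl-tRNA, differed by -0.21 in total brain (-0.13 without 0.002 mg/kg replicate 2) and 0.86 in frontal lobe, while the 4 other probes of the gene lay between -0.09 and 0.01 in total brain.

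**Figure D5:**
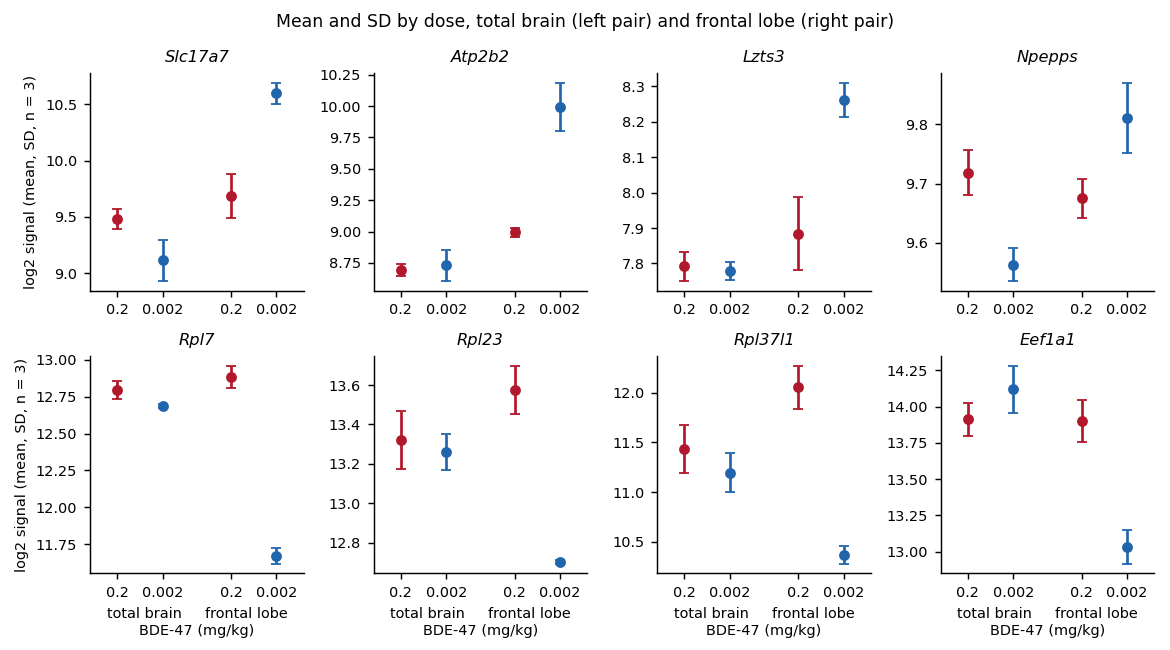
Mean and SD (log2 signal, n = 3) of the 8 genes named for the difference between tissues, at 0.2 mg/kg (red) and 0.002 mg/kg (blue), with total brain as the left pair and frontal lobe as the right pair. For Rpl7 the means are 12.79 and 12.69 in total brain and 12.88 and 11.67 in frontal lobe; each panel has its own scale.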

How the data were processed

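RNA from total brain was hybridized to Illumina rat arrays as biotin-labelled cRNA, 1 array per pup. The deposited values are on a log2 or log2-like scale and were made by the authors. Per the submitters' processing notes, lumi was the tool. Its version, its transformation (log2 or variance stabilization, which compresses differences near the floor) and its normalization are stated in none of the sources used here. No detection p-values were used, and the number of arrays limits the precision.

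Of 22523 probes, 13793 carried 1 gene symbol (13337 symbols) and 8730 none. Linear models were run in R 4.3.3 with the limma package, version 3.58.1 (lmFit, then eBayes), on the 9 total brain arrays in 3 groups without a filter, and the interaction with tissue on all 18 arrays in 6 groups. Figures were drawn in Python 3.11.15 with matplotlib 3.10.9. The fit was tested on simulated data. Replicates are pups of different litters.

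Named genes are, in each direction, the 10 probes with 1 symbol that passed, and since none did, the places went to probes of the brighter 50% whose 3 values at each dose did not overlap, by lowest unadjusted p. Added were up to 3 members of each list with the smallest unadjusted p, the 4 smallest interaction p in each direction, and Thrsp, Hr, Klf9, Dio2, Ttr, Cyp1a1, Nqo1, Mbp, Gfap and Fos (Cyp2b1 and Igf1 of the same rule matched no probe symbol and are not analysed here). The 49 gene lists use the probe of a gene with the highest mean and are described without a test. Members, lists and rules were chosen with earlier results of these data known.

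The comparison was also computed with a replicate block, with array weights, with eBayes in its trend and robust form, on the brighter 50% of probes, after quantile normalization or centring of arrays on their median, on the 6 exposed arrays alone, on all 18 arrays, at an adjusted p under 0.1 and with each array left out, and the interaction in part of these ways. The labels give different litters for equal replicate numbers. Across probes, the deviations of equal-numbered arrays at 0.2 and 0.002 mg/kg correlated at 0.24, 0.44 and 0.16 for replicates 1, 2 and 3. The pairs 1 with 3 and 3 with 1 also correlated at 0.18 each, above the value of replicate 3, and the 4 other unequal-numbered pairs lay between -0.35 and -0.23. All 3 equal-numbered pairs are over 0.1, but so are the pairs 1 with 3 and 3 with 1. These values therefore do not settle whether the numbers pair the arrays. The reported fit has no block, and the replicate block is given as an alternative.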

Additional observations from a re-analysis of the deposited data

Results flagged for a closer look

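The following 8 genes have a difference between the doses that itself differed between total brain and frontal lobe in the interaction test over all 18 arrays (limma, adjusted p under 0.05). Each value is the 0.2 minus 0.002 mg/kg difference in total brain minus that in frontal lobe. More positive in total brain were Slc17a7 (1.27, SE 0.15, adjusted p = 0.00320), Atp2b2 (0.96, SE 0.11, adjusted p = 0.00320), Lzts3 (0.39, SE 0.06, adjusted p = 0.0205) and Npepps (0.29, SE 0.05, adjusted p = 0.0213). More negative in total brain were Rpl37l1 (-1.44, SE 0.20, adjusted p = 0.0104), Rpl7 (-1.11, SE 0.11, adjusted p = 0.00113), the probe of Eef1a1 (-1.07, SE 0.17, adjusted p = 0.0228) and Rpl23 (-0.81, SE 0.10, adjusted p = 0.00502). Frontal lobe arrays come from older pups with more injections per their sample protocol, so the tissue cannot be told apart from age and schedule.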

How the results depend on the processing

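The count of called probes between the doses was 0 in the other fits, the replicate block included, 2 with the trend and robust options, and between 0 and 1 when an array was left out (1 without vehicle replicate 3 and 1 without 0.002 mg/kg replicate 2). At an adjusted p under 0.1 it was also 0, with 1321 probes at an unadjusted p under 0.05. The interaction count of 35 was 73 with the trend and robust options, 19 with the replicate block, 47 among the brighter 50% of probes and 39 after quantile normalization. With 1 of the 6 exposed total brain arrays left out it ranged from 15 to 105, the highest without 0.002 mg/kg replicate 2. Vehicle arrays were not left out of the interaction. The replicate block changed no other call of the comparison, but raised unadjusted counts in several lists as given above and lowered others: with it, cholesterol synthesis held 3 lower and 0 higher members, and 2 were higher in ependyma and cilia, 1 in choroid plexus and 1 in astrocyte genes (without it 3, 2 and 2). Of 1526 alternative values for 90 named genes, 7 had the opposite sign. Thrsp did so with array weights (0.0404). With an array left out, the difference ranged from -0.0918 to 0.0303 for Atp2b2, from -0.129 to 0.00814 for Gfap, from -0.124 to 0.00285 for Hr, from -0.00515 to 0.0350 for Lzts3, from -0.0113 to 0.236 for Mbp and from -0.0241 to 0.113 for Rpl23. Signal near the floor, where most probes lie, limits what could be seen there. The cause of these changes was not tested.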

Other observations

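A small set of probes, picked after their values were seen, sat at 2 levels that cut across the dose groups. With a gap of at least 1 between the levels and at least 2 of the 9 arrays on each side there were 9 such probes, 6 of them with a gene name, and none reached an unadjusted p under 0.05. Rps9, a protein of the small ribosomal subunit, gave 12.16, 8.16 and 8.01 at 0.2 mg/kg, against 11.81, 8.13 and 8.01 at 0.002 mg/kg, so that replicate 1 was high at both doses, and a second probe of the gene showed the same arrays high. Mrpl18, a mitochondrial ribosomal protein, gave 8.50, 10.89 and 8.38 at 0.2 mg/kg, against 8.50, 11.08 and 8.39 at 0.002 mg/kg, with all 3 vehicle arrays between 10.98 and 11.20. Rpl30, of the large ribosomal subunit, gave 9.72, 9.24 and 13.64 at 0.2 mg/kg, against 12.85, 12.64 and 9.16 at 0.002 mg/kg. In 7 of the 9 probes the frontal lobe arrays also held a gap of at least 1.

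Of these probes, Hmgn1 and Washc3 showed the 2 largest differences of all. Hmgn1, a nucleosome-binding protein, gave 10.94, 10.72 and 10.56 at 0.2 mg/kg, against 10.56, 12.65 and 12.36 at 0.002 mg/kg, a difference of -1.12 (SE 0.49, adjusted p = 0.780 in limma). Washc3, a subunit of the endosomal WASH complex, gave 10.15, 7.95 and 7.95 at 0.2 mg/kg, against 9.83, 9.56 and 9.85 at 0.002 mg/kg, a difference of -1.07 (SE 0.74). In vehicle its values were 7.84, 9.96 and 7.88, so both levels occurred without the compound. Rnf138, a ubiquitin ligase, was by contrast close within each dose, with 10.13, 10.27 and 10.03 at 0.2 mg/kg, against 9.35, 9.60 and 9.39 at 0.002 mg/kg, a difference of 0.70 (SE 0.18, adjusted p = 0.780 in limma). Its vehicle values of 9.75, 9.82 and 9.09 were wider apart (SD 0.40). The probe with no gene name that passed without 0.002 mg/kg replicate 2 gave 7.66, 7.65 and 7.66 at 0.2 mg/kg, against 8.53, 7.68 and 8.49 at 0.002 mg/kg, with 7.64, 7.69 and 7.65 in vehicle.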
